A study of Homo sapiens with 12 samples.

Results

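The regions described here are crosslinking clusters of myc-tagged QKI-5 that were enriched over input yet overlapped no cluster of the endogenous QKI protein. They were chosen by their measured values. A cluster of a tagged library entered when its log2 fold over input and its −log10 p were both at least 3, and when it shared no base on the same strand with any cluster of either endogenous library. Of 1004773 tagged clusters, 1226 met the rule, and they are called endogenous-free clusters below. The enriched tagged clusters that did overlap an endogenous cluster numbered 9566.

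Enhanced crosslinking and immunoprecipitation (eCLIP) recovers the RNA attached to a protein after UV irradiation and sequences it beside a size-matched input. The cells were HEK293T, an established human embryonic kidney line, named HEK293xT in the sample labels. The mutant group expressed myc-QKI-5 with the substitutions K120A and R124A (named by residue number) from 10 µg of transiently transfected plasmid. The wild type group received as much plasmid for unsubstituted myc-QKI-5, and both groups were cultured for 72 hours after transfection. RNA of both was pulled down with an anti-MYC antibody. The endogenous group was not transfected and was pulled down with an anti-QKI antibody. Cells of all 3 groups were irradiated at 254 nm with 400 mJ/cm2. Each group had 2 immunoprecipitation libraries. The tagged cells still carried their own QKI gene, and tag, antibody and transfection all separate the tagged groups from the endogenous one and cannot be told apart. Nothing in the labels ties the 2 replicates of a group to separate cultures, and their spread may be technical.

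QKI belongs to the STAR family of KH-domain RNA-binding proteins and binds a short bipartite motif in pre-mRNA and mRNA. QKI-5 is its nuclear isoform and regulates splicing, often from introns beside regulated exons. The deposited lists record only where clusters were called.

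The series' design note speaks of embryonic stem cells differentiating to cardiomyocytes, while the labels give the kidney line. As a check on the label, endogenous clusters carrying marker names were counted. LIN28B had 96 and 55 clusters and PAX2 had 6 and 3 in the 2 endogenous libraries, while the kidney markers PAX8 and LHX1 had 0. The pluripotency markers POU5F1, NANOG, LIN28A and DPPA4 had 0 in both. Of the cardiac markers, MYH6, MYH7 and TNNT2 had 0, NKX2-5 had 0 and 1, TTN had 2 and 2, and RYR2 had 66 and 29. Read depth per library is unknown here, because the files give neither reads nor counts. Clusters per tagged library ran between 226962 and 273269, and the 2 endogenous libraries held 616191 in all. No tagged list holds a cluster at or below a log2 fold of 0, so a locus without a listed cluster was either not called or not above input.

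Endogenous-free clusters made up much of the little that was enriched with the mutant protein, and a small part of what was enriched with the wild type protein. They numbered 32 in mutant 1 and 589 in mutant 2, against 179 in wild type 1 and 426 in wild type 2. Over all clusters of a library, the share enriched was 0.0405% in mutant 1, 0.304% in mutant 2, 2.07% in wild type 1 and 1.89% in wild type 2. Of the 94 enriched clusters of mutant 1, 34.0% were endogenous-free (exact Clopper-Pearson 95% interval 24.6% to 44.5%). Of the 829 enriched clusters of mutant 2, the share was 71.1% (67.8% to 74.1%). In wild type 1 it was 3.81% of 4698 (3.28% to 4.40%), and in wild type 2 it was 8.24% of 5171 (7.50% to 9.02%). These intervals, and all others given, cover counting error only. Both mutant shares lay above both wild type shares. The mean share was 52.6% ± 26.2 in mutant and 6.02% ± 3.13 in wild type (SD, n = 2 libraries each). The number of endogenous-free clusters itself did not separate the groups, at 310.5 ± 393.9 per mutant library and 302.5 ± 174.7 per wild type library. These shares follow from the rule and are given without a test.

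**Figure D1:**
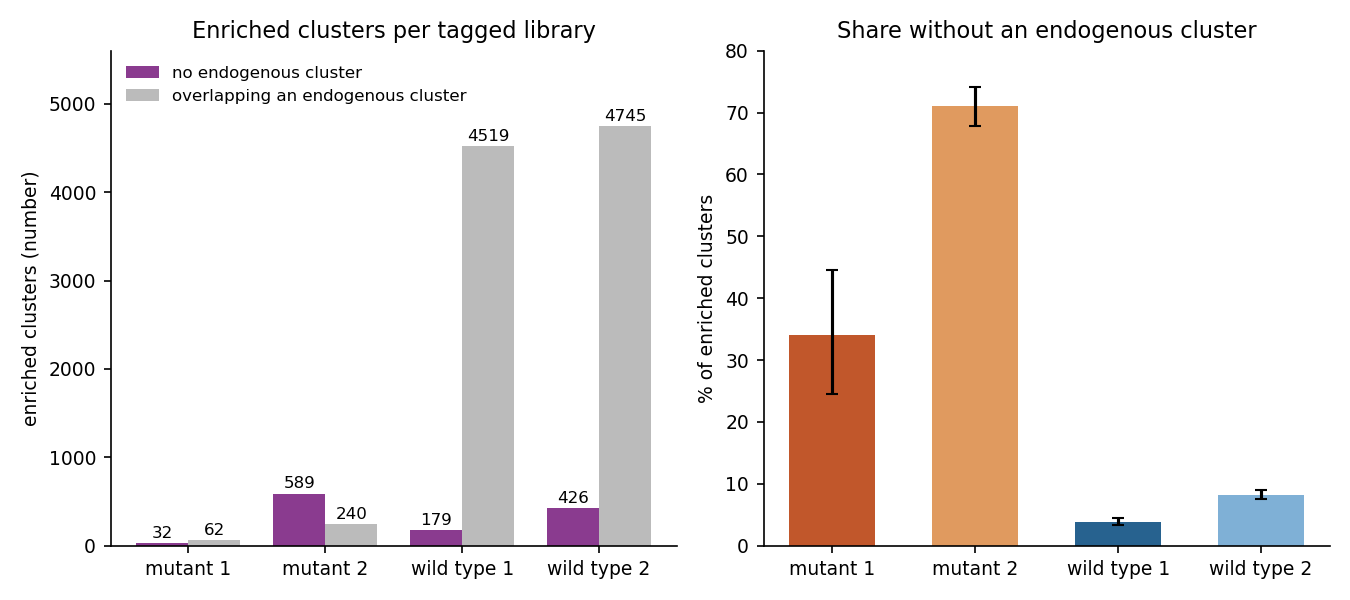
Left, number of enriched clusters in each tagged library, split into those without an endogenous cluster (purple) and those overlapping one (grey). Right, the first kind as a percentage of all enriched clusters, with exact 95% intervals. The mutant libraries stand at 34.0% and 71.1%, the wild type libraries at 3.81% and 8.24%.

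Most clusters of any strength lacked an endogenous counterpart. Among clusters that were not enriched, 80.4% in mutant 1, 80.6% in mutant 2, 61.5% in wild type 1 and 66.2% in wild type 2 overlapped no endogenous cluster. The enriched clusters of mutant 2 stood closest to the level of its unenriched ones, while the enriched clusters of both wild type libraries overlapped endogenous clusters far more often than their unenriched ones. Library 2 supplied 94.9% of the 621 mutant endogenous-free clusters and 70.4% of the 605 of wild type.

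Both kinds of enriched cluster had most of their values not far above the threshold. For endogenous-free clusters the log2 fold over input had a median of 3.49 in mutant 1 (3.02 to 4.41) and 3.28 in mutant 2 (3.01 to 6.08), against 3.73 in wild type 1 (3.04 to 5.70) and 3.76 in wild type 2 (3.01 to 7.80). For the other enriched clusters the medians were 3.91 and 3.32 in mutant and 3.87 and 3.83 in wild type. Between 3 and 3.25 lay 11 and 258 of the endogenous-free mutant clusters and 34 and 105 of the wild type ones. Just outside, with a log2 fold of 2.75 to 3 and a −log10 p of at least 3, lay 18 and 176 further clusters of mutant 1 and mutant 2, and 34 and 87 of wild type 1 and wild type 2. The lowest inside were at 3.0215, 3.0122, 3.0364 and 3.0116 in mutant 1, mutant 2, wild type 1 and wild type 2, and the highest outside at 2.9988, 2.9928, 2.9969 and 2.9976. A log2 fold of 4 or more was reached by 6 clusters of mutant 1, 80 of mutant 2, 37 of wild type 1 and 125 of wild type 2.

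Low −log10 p values made up a larger share of the endogenous-free clusters than of the other enriched ones in all 4 libraries. The value was under 5 for 68.8% of endogenous-free clusters in mutant 1 and 77.6% in mutant 2, and for 73.7% in wild type 1 and 62.9% in wild type 2. Among the enriched clusters with endogenous overlap the shares were 22.6%, 61.3%, 36.6% and 34.1% in the same order. The values were also coarse, with many clusters carrying exactly the same pair of fold and p. The 589 clusters of mutant 2 had 92 distinct pairs, and 85 of them (14.4%) shared the pair with a log2 fold of 3.01 and a −log10 p of 3.02, as did 36 of the 240 other enriched clusters (15%). The 426 clusters of wild type 2 had 89 distinct pairs, and 32 (7.51%) shared the most common one, as did 3.67% of the other enriched clusters.

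Where the rule's other edge lay, a few bases decided membership for some clusters. Endogenous-free clusters within 10 bases of an endogenous cluster numbered 4 and 14 in the mutant libraries and 8 and 13 in the wild type libraries. Conversely, 10 and 26 enriched mutant clusters and 41 and 52 enriched wild type clusters were left out by an overlap of 10 bases or fewer.

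To name places, endogenous-free clusters of the 4 libraries were joined into loci on the same strand when at most 50 bases apart, which gave 1098 loci. A locus was given a gene only where the nearest endogenous clusters on both sides, within 10000 bases on the same strand, carried 1 and the same gene. The value of a locus in a library is the highest log2 fold of its endogenous-free clusters there, or otherwise that of the listed cluster with the highest −log10 p. All positions are on build hg19, 1-based. There were 589 mutant loci and 513 wild type loci, of which 4 counted in both groups. Since loci are described under the protein whose clusters chose them, that protein's higher values there follow from the choice and are a description only.

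The mutant loci found in both mutant libraries numbered 9, which is 1.53% of mutant loci. The smaller library bounds this share, since mutant 1 had 32 endogenous-free clusters and mutant 2 had 589. Of the rest, 556 had an endogenous-free cluster in mutant 2 alone, 22 in mutant 1 alone, and 2 in mutant 2 and wild type 2. Of the 9 loci, 5 lay in a single stretch of chromosome X, at chrX:139802737-139807834 on the plus strand, 5098 bases long. The endogenous clusters nearest to these loci belonged, on the left, to LINC00632, a long noncoding RNA gene, and, on the right, to the transcript named lnc-SPANXB1-7.

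In the stretch on chromosome X, mutant 1 had 13 clusters of which 5 were endogenous-free, and mutant 2 had 15 of which 12 were. Wild type 1 had 14 clusters with 1 endogenous-free, and wild type 2 had 17 with 5. The median log2 fold over all clusters of the stretch was 2.19 in mutant 1 and 3.77 in mutant 2, against 2.06 in wild type 1 and 2.09 in wild type 2. Endogenous 1 had 8 clusters there with a median of 2.23, and endogenous 2 had 2 with a median of 4.25. The endogenous clusters lay in the first part of the stretch, where wild type and mutant also had clusters. The mutant endogenous-free clusters filled its last part, where no endogenous cluster was listed. Both wild type libraries had clusters in that part too. The 1 endogenous-free cluster of wild type 1 and all but 1 of the 5 of wild type 2 lay there.

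**Figure D2:**
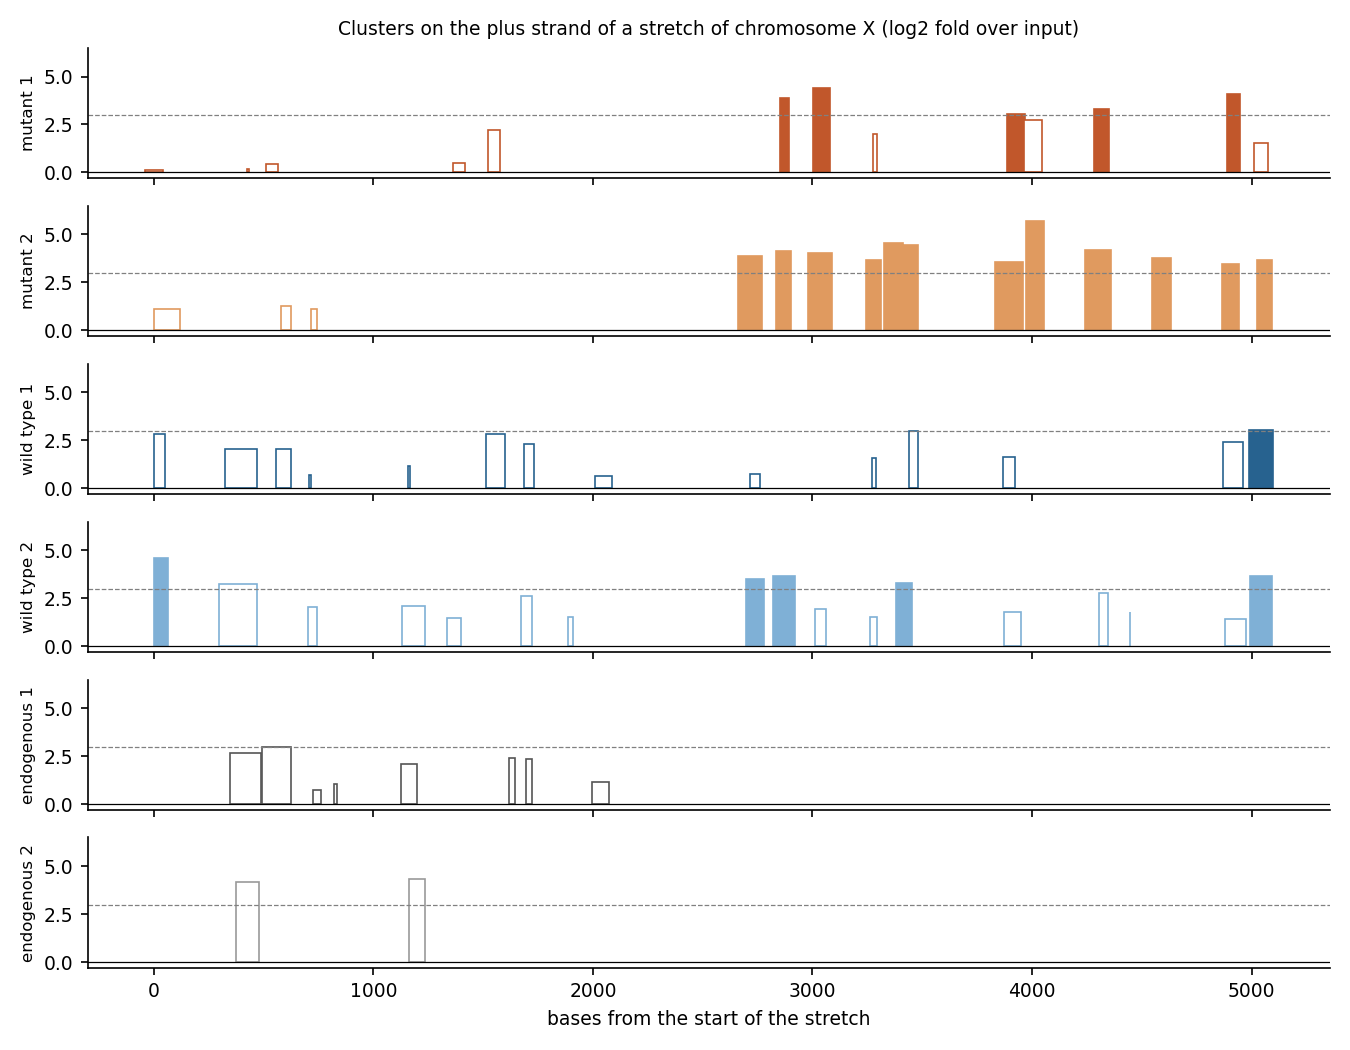
Clusters of the 6 libraries along the stretch of chromosome X, with distance in bases on the x axis and log2 fold over input on the y axis. Filled bars are enriched clusters without endogenous overlap, open bars are all other clusters, and the dashed line marks a log2 fold of 3. The 12 filled bars of mutant 2 lie beyond the last endogenous cluster. So do the filled bar of wild type 1 and all but 1 of those of wild type 2.

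Single loci of the stretch differed in how far wild type followed. At chrX:139806570-139806789 the log2 fold was 3.02 and 5.72 in the mutant libraries and 1.63 and 1.81 in the wild type libraries. At chrX:139805718-139805824 it was 4.41 and 4.01 in mutant, with no cluster listed in wild type 1 and 1.96 in wild type 2. At chrX:139806980-139807093 it was 3.31 and 4.21 in mutant, with none listed in wild type 1 and 2.76 in wild type 2. Wild type 2 had a listed cluster at each of these 3 loci, and wild type 1 at the first.

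Other loci of the same stretch were shared between the proteins. The locus at chrX:139807600-139807834 was the only one of the 1098 with an endogenous-free cluster in all 4 tagged libraries, at 4.07 and 3.65 in mutant and 3.06 and 3.65 in wild type. At chrX:139805398-139805655 the mutant values were 3.85 and 4.15, and the wild type values 0.73 and 3.65. At chrX:139805982-139806215 they were 2.02 and 4.53 in mutant and 2.997 and 3.30 in wild type. Wild type 2 had an endogenous-free cluster at all 3, and wild type 1 at the first alone.

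Away from chromosome X, the highest mean of the 2 mutant libraries was at chr1:17067071-17067081 on the plus strand, an 11-base locus with a log2 fold of 4.41 and 5.53 in mutant and no listed cluster in either wild type library. It stood alone: the nearest endogenous clusters on its strand were 276882 and 121336 bases away. In NUP210, which encodes a membrane glycoprotein of the nuclear pore, chr3:13419086-13419474 on the minus strand had 3.19 and 4.12 in mutant and 1.67 and 1.80 in wild type. In AGAP1, an Arf GTPase-activating protein gene, chr2:236656004-236656165 on the plus strand had 4.07 and 3.16 in mutant and 1.41 and 0.02 in wild type.

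A pair of loci on chromosome 19 lay between an endogenous cluster of PIAS4, which encodes a SUMO ligase, and one of lnc-NMRK2-5. At chr19:4036889-4037036 on the plus strand the log2 fold was 3.25 and 3.14 in mutant and 2.22 and 1.25 in wild type. At chr19:4035974-4036482 mutant 2 had a run of 4 endogenous-free clusters and a log2 fold of 5.83, while mutant 1 stood at 2.999, just below the threshold. Wild type had 2.41 and 3.14 there. This was the only locus outside chromosome X with endogenous-free clusters of both groups, through mutant 2 and wild type 2.

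The highest log2 fold of any mutant endogenous-free cluster was in AUTS2, a large gene for a regulator of transcription in neural development, at chr7:69961281-69961796 on the plus strand. It was 6.08 in mutant 2 and 2.46 in mutant 1, against 2.22 and 1.86 in wild type. AUTS2 and DIP2C also had the most mutant loci, 6 each, all of them from mutant 2 alone, with log2 folds of 3.01 to 6.08 and of 3.01 to 3.91. ANKRD11, which encodes a chromatin regulator, had 5, and AGPAT3, FBRSL1, MACROD1, MED16, NUP210, PDE9A, TBCD and ZNF598 had 4 each. In mutant 1, a cluster in ID4, the gene of an inhibitor of DNA binding, had a log2 fold of 4.19. The only run of mutant 1 was a pair in FAF1 at chr1:51425046-51425240 on the minus strand, with 3.93 in mutant 1, 0.84 in mutant 2, and 1.87 and 1.93 in wild type.

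The wild type loci found in both wild type libraries numbered 64, or 12.5% of wild type loci, and 63 of them had no mutant endogenous-free cluster. Here too the smaller library bounds the share, with 179 endogenous-free clusters in wild type 1 and 426 in wild type 2. With such unlike library sizes, the mutant and wild type shares cannot be set against each other. Most of the leading ones had no mutant cluster of any strength, which was also the usual state of wild type clusters at large. Clusters of mutant 1 and mutant 2 overlapped 12.1% and 14.0% of all clusters of wild type 1. Of all clusters of wild type 2 they overlapped 12.0% and 13.7%. For enriched wild type clusters with endogenous overlap these shares ran between 8.03% and 8.74%. At chr7:157162554-157162838 on the plus strand, in DNAJB6, the gene of an Hsp40-type co-chaperone, the log2 fold was 5.70 and 5.66 in wild type with no cluster listed in mutant. Endogenous clusters of DNAJB6 lay 23 and 4 bases to either side, at log2 folds of 2.26 and 4.21. At chr2:242559806-242559944 on the minus strand, in THAP4, the wild type values were 4.75 and 5.69, and mutant had 1 cluster, at 1.69 in mutant 2. Its flanking endogenous clusters were 41 and 31 bases away at 2.35 and 1.84.

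Further wild type loci were listed in neither mutant library. In CCNC, the gene of cyclin C, a subunit of the Mediator kinase module, chr6:100014205-100014481 on the minus strand had 4.11 and 5.17 in wild type. In STRAP, a gene for a component of the SMN complex, chr12:16042730-16042821 on the plus strand had 4.41 and 4.76. In NKTR, a gene for a cyclophilin-related protein, chr3:42648123-42648190 on the plus strand had 4.58 and 4.39. These 3 lay between endogenous clusters whose log2 folds ran no higher than 2.62.

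Other wild type loci could not be given a gene by the flanking rule. The locus chr12:82727298-82727419 on the minus strand, at 4.37 and 4.93, had CCDC59 clusters on both sides but 15157 and 14235 bases away. The locus chr17:42564126-42564254 on the minus strand, at 3.80 and 5.08, had GPATCH8 clusters 13082 and 870 bases away. The locus chr14:104159088-104159172 on the plus strand, at 3.78 and 5.22, had a KLC1 cluster 1205 bases before it and a noncoding one 1712 bases after it. The locus chr13:96346378-96346481 on the plus strand, at 4.32 and 4.53, lay close to clusters of 2 different genes, MTND5P2 at 131 bases and DNAJC3 at 100 bases. None of these 4 had a listed mutant cluster.

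**Figure D3:**
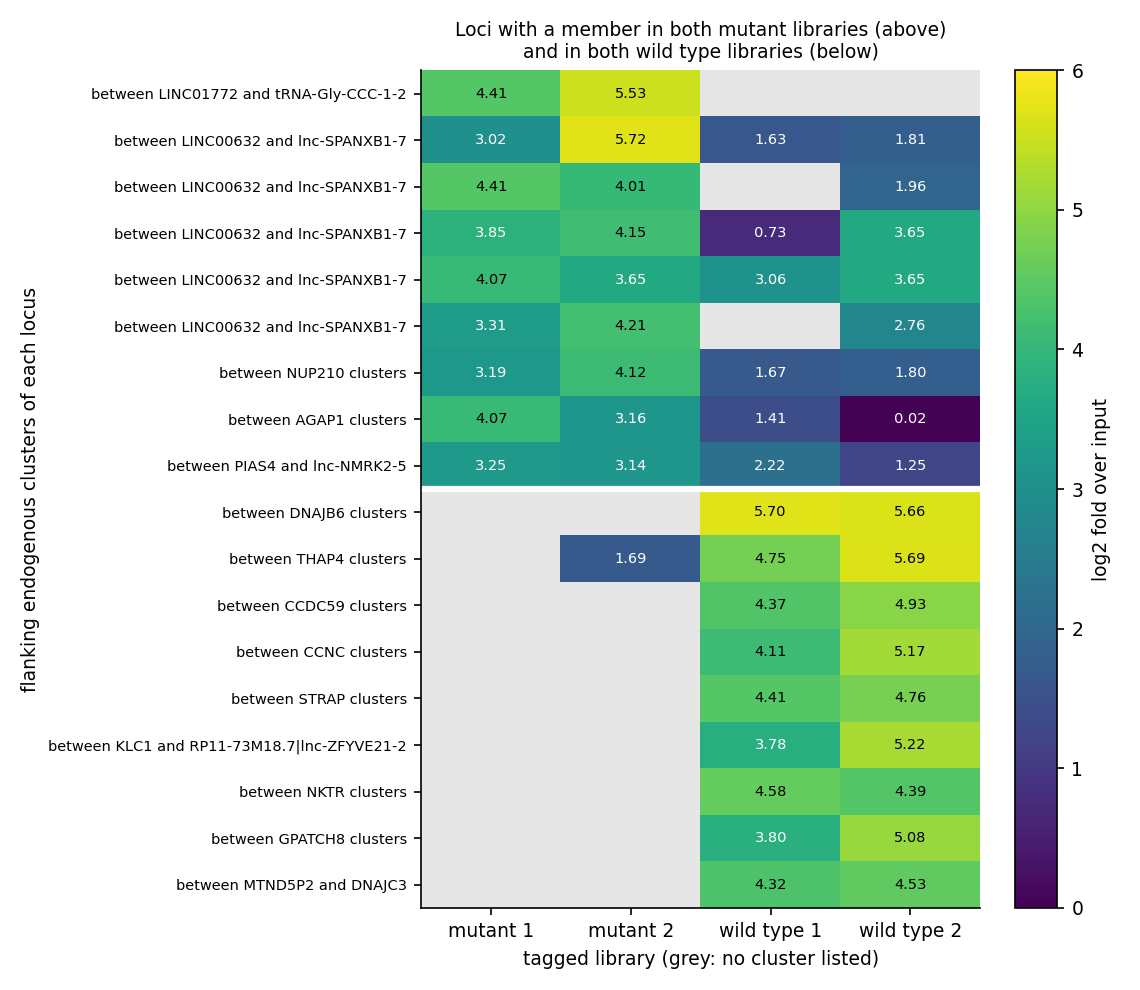
Log2 fold over input in the 4 tagged libraries at the 9 loci with an endogenous-free cluster in both mutant libraries (above the white line) and 9 of the 10 leading loci with one in both wild type libraries (below it), with rows named by the flanking endogenous clusters. Grey cells had no listed cluster. All but the topmost of the upper loci have a value in wild type 2, while of the lower ones only the THAP4 locus has a value in mutant.

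The strongest single clusters of all were in wild type 2. In MICAL3, a gene for an actin-oxidising monooxygenase and one of the listed QKI targets, 2 adjoining clusters at chr22:18360074-18360118 on the minus strand had log2 folds of 7.80 and 7.66. They filled a gap between endogenous clusters 4 and 17 bases away at 7.07 and 7.17, and another cluster, at chr22:18359969-18359973, had 6.54. No endogenous-free cluster or other listed cluster of wild type 1 or of mutant overlapped these loci. In CANT1, which encodes a calcium-activated nucleotidase, a wild type 2 cluster at chr17:77000206-77000295 on the minus strand had 6.94, with endogenous clusters 69 and 11 bases away at 6.01 and 4.69. The genes with most wild type loci were SEC31A, for a COPII coat subunit, and USP15, for a deubiquitinase, with 6 each and log2 folds of 3.30 to 4.17 and of 3.10 to 4.20. SMIM4 had 4.

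Flanking clusters gave a gene to 450 mutant loci, in 354 genes, and to 390 wild type loci, in 308 genes. Both groups had a locus in 6 genes, among them ANKRD11, CSE1L, DNAJB6, NCAPG2 and ZNF292. The 6 made up 1.69% of the mutant genes and 1.95% of the wild type genes. This count is a description, with no background share of genes to set it against.

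Replicate sharing was then read in the library that had not chosen a cluster. Endogenous-free clusters of wild type were found again more often than those of mutant, but at lower strength than in the library that chose them. A cluster of the other library of the group, of any strength, overlapped 20 of 32 clusters of mutant 1 (62.5%, 43.7% to 78.9%) and 243 of 589 of mutant 2 (41.3%). In wild type it overlapped 151 of 179 (84.4%) and 359 of 426 (84.3%). Over all clusters of a library this share was 21.8% in mutant 1, 18.6% in mutant 2, 31.8% in wild type 1 and 26.6% in wild type 2. Each of the 4 libraries thus stood above its background. Among unenriched clusters that also lacked endogenous overlap, the share was 18.7% and 15.8% in mutant and 17.2% and 13.2% in wild type. Those clusters were narrower, with median widths of 52 to 60 bases against 85 to 94.5. The part of width in this sharing was not tested.

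The enriched clusters that did overlap an endogenous cluster were shared more often, at 82.3% and 64.2% in mutant and 98.2% and 98.2% in wild type. The difference, endogenous-free minus the others, averaged −17.6 percentage points (SD 4.50, n = 4 libraries, −22.9 to −13.8) and was negative in 4 of 4 libraries. An exact two-sided sign-flip permutation over libraries gave p = 0.13, the smallest that 4 libraries allow. Between the proteins, the mean share was 51.9% ± 15.0 in mutant and 84.3% ± 0.0603 in wild type (SD, n = 2 each), and the libraries did not overlap. The exact two-sided permutation p was 0.33, the smallest that 2 against 2 allow. Both shares of a group come from the same pair of libraries, read in both directions. They are not independent, and their SD is no measure of spread between replicates. Both tests thus count 2 pairs as 4 units. With a −log10 p of at least 5 required, mutant minus wild type shrank to −8.35 percentage points and the libraries overlapped (exact permutation p = 0.67), against −32.4 at the threshold of 3.

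With the partner cluster also required to be enriched, the shares were lower and the proteins overlapped. They were 28.1% and 1.70% in mutant and 39.1% and 19.0% in wild type, where the background over all clusters was 0.173% and 0.0268% in mutant and 2.28% and 1.79% in wild type. The means were 14.9% ± 18.7 in mutant and 29.1% ± 14.2 in wild type (exact permutation p = 0.67, n = 2 each). For the enriched clusters with endogenous overlap the shares were 38.7% and 10.0% in mutant and 58.7% and 56.5% in wild type. The difference between the 2 kinds averaged −19.0 percentage points ± 13.3 (SD, n = 4), again negative in 4 of 4 libraries (exact sign-flip permutation p = 0.13). The same dependence within a pair of libraries holds for these shares and tests.

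The log2 fold in the partner library shows the same fall. Where a partner cluster was listed, its median log2 fold was 2.24 for mutant 1 and 1.07 for mutant 2, against 3.05 for wild type 1 and 2.50 for wild type 2. The same clusters had medians of 3.48, 3.28, 3.73 and 3.76 in the library that chose them. The partner value was the lower one for 15 of 20 and 238 of 243 mutant clusters, and for 108 of 151 and 309 of 359 wild type clusters. A partner value under 2 was seen for 7 and 198 mutant clusters and for 23 and 117 wild type clusters. A cluster chosen for passing a threshold is on average higher in the library used to choose it, so the fall itself is no finding, and only its size can be compared between libraries. Mutant 2 had the largest fall, and wild type 1 the smallest.

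**Figure D4:**
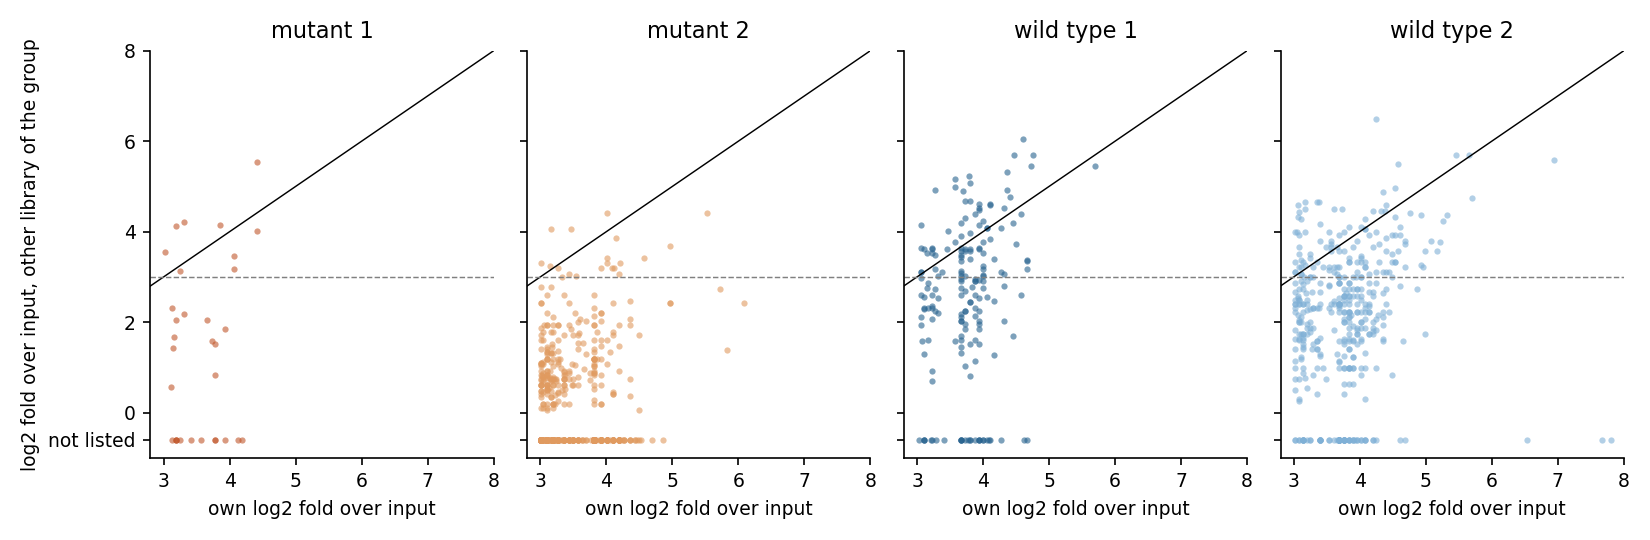
Each point is an enriched cluster without endogenous overlap, plotted by its log2 fold in its own library (x axis) and in the other library of the group (y axis), with clusters not listed there on the lowest row. The solid line marks equal values and the dashed line a log2 fold of 3; mutant 2 has 346 points on the lowest row and a median of 1.07 above it.

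Because strength differed between the 2 kinds of enriched cluster, the shares were also taken at a −log10 p of 3 to 5 alone, a setting chosen after the values had been seen. There a partner cluster was listed for 50% and 33.7% of endogenous-free clusters in mutant and for 84.9% and 80.2% in wild type. The enriched clusters with endogenous overlap stood at 50% and 53.1% in mutant and 96.4% and 95.8% in wild type. With the partner also enriched, endogenous-free clusters stood at 22.7% and 0% in mutant, where 0 of 457 was found in mutant 2, and at 32.6% and 7.46% in wild type. The others stood at 7.14% and 2.72% in mutant and 32.8% and 28.7% in wild type. At a −log10 p of 5 or more, a partner cluster was listed for 90.0% and 67.4% of endogenous-free clusters in mutant and for 83.0% and 91.1% in wild type. The enriched clusters with endogenous overlap stood at 91.7% and 81.7% in mutant and 99.2% and 99.4% in wild type. In the share with a listed partner, the 2 kinds of mutant 1 thus differed little within either range of −log10 p.

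Endogenous-free clusters of the mutant protein coincided with wild type clusters more often than the mutant clusters at large, and those of wild type coincided with mutant clusters less often than wild type clusters at large. A cluster of wild type 1 overlapped 18 of the 32 clusters of mutant 1 (56.3%), and one of wild type 2 overlapped 17 (53.1%). For mutant 2, both wild type libraries overlapped 163 of 589 (27.7%). Over all clusters of mutant 1 the shares were 11.9% and 14.2%, and over all of mutant 2 they were 11.7% and 13.8%. The wild type cluster was enriched for 0 and 1 of the endogenous-free clusters of mutant 1 and for 1 and 6 of those of mutant 2. For the enriched clusters with endogenous overlap these counts were 31 and 25 of 62 in mutant 1 and 28 and 21 of 240 in mutant 2. In the other direction, clusters of mutant 1 and mutant 2 overlapped 9 (5.03%) and 6 (3.35%) of the wild type 1 clusters and 16 (3.76%) and 17 (3.99%) of the wild type 2 clusters. Over all clusters the shares were 12.1% and 14.0% in wild type 1 and 12.0% and 13.7% in wild type 2. A listed cluster of the other protein overlapped the enriched clusters with endogenous overlap at 87.1% and 88.7% for mutant 1, 49.6% and 43.8% for mutant 2, 8.45% and 8.74% for wild type 1, and 8.03% and 8.64% for wild type 2. Since these lists differ in size and depth is unknown, the shares are given side by side without a test. The part of cluster width in them was not tested either.

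Most endogenous-free clusters had no other of their own kind within 50 bases, as held for the other clusters in every library but mutant 1, where most other enriched clusters had one. At a gap of at most 50 bases on 1 strand, the 32 clusters of mutant 1 formed 31 runs of which 30 were single clusters, and the 589 of mutant 2 formed 569 of which 555 were single. The 179 of wild type 1 formed 171 with 165 single, and the 426 of wild type 2 formed 406 with 391 single. Clusters with a neighbour of their own kind, as the comparison was planned, made up 6.25% and 5.77% in mutant and 7.82% and 8.22% in wild type. Among enriched clusters with endogenous overlap the share was 56.5% and 14.2% in mutant and 15.4% and 14.5% in wild type, and among unenriched clusters without endogenous overlap it was 3.10% and 4.35% in mutant and 2.29% and 3.24% in wild type. The difference between the 2 enriched kinds averaged −18.1 percentage points ± 21.4 (SD, n = 4 libraries, −50.2 to −6.33) and was negative in 4 of 4, with an exact sign-flip permutation p of 0.13. Without mutant 1, whose other enriched clusters ran together most, it averaged −7.43 percentage points. The 2 kinds differed in number: in wild type the endogenous-free clusters were few beside the other enriched ones, while in mutant 2 they were the more numerous, at 589 against 240. The part of these numbers in the own-kind shares was not tested. With any enriched cluster of the same library counted as a neighbour, a setting added after the values had been seen, the shares were 9.38% and 6.45% in mutant and 15.1% and 14.6% in wild type, against 56.5% and 15.8% of the other enriched clusters in mutant and 15.7% and 15.1% in wild type. On that count the 2 kinds differed by under 1 percentage point in both wild type libraries, while the mean difference of −14.4 came from the mutant libraries (exact sign-flip permutation p = 0.13, n = 4). The mean own-kind share in mutant was 6.01% ± 0.338 against 8.02% ± 0.279 in wild type (exact permutation p = 0.33, n = 2 each). That order turned when the gap was widened to 1000 bases, where 21.9% and 15.3% of mutant clusters and 13.4% and 18.3% of wild type clusters had such a neighbour.

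The longest runs lay in the loci already described. In mutant 2 they were the runs of 4 clusters in AUTS2 and beside PIAS4. In wild type the run in DNAJB6 was the longest, with 3 clusters in wild type 1 and 5 in wild type 2. In STX5, a gene for a Golgi SNARE protein, chr11:62583502-62583744 on the minus strand held a run of 3 in wild type 1, with log2 folds of 3.27 in wild type 1 and 3.53 in wild type 2 and no mutant cluster. At chr17:42752655-42752875 on the minus strand wild type 2 had a run of 3, at 3.73, and wild type 1 had 4.50. Joined at 1000 bases, the 12 endogenous-free clusters of mutant 2 on chromosome X and the 5 of mutant 1 each became 1 run.

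Overlap with opposite-strand clusters was rare. An endogenous cluster lay on the opposite strand of 0 of 32 and 2 of 589 mutant clusters (0.340%) and of 0 of 179 and 6 of 426 wild type clusters (1.41%). At 3 counts of the total, the counts of 0 allow shares of up to 9.38% in mutant 1 and 1.68% in wild type 1, and the exact 95% upper limits are 10.9% and 2.04%. Enriched clusters with endogenous overlap stood at 0% and 0% in mutant and 0.177% and 0.211% in wild type, and unenriched clusters without endogenous overlap at 0.154%, 0.171%, 0.167% and 0.179% in the 4 libraries. The difference from the enriched ones averaged 0.340 percentage points ± 0.611 (SD, n = 4), positive in 2 of 4 libraries (exact sign-flip permutation p = 0.5). The difference from the unenriched averaged 0.270 ± 0.659 (exact p = 0.63), so neither was larger than the spread between libraries. A cluster of the same library lay opposite 6 clusters of wild type 2 and none of the other 3 libraries.

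Some of the opposite-strand cases are named here, which was decided after they had been found. In mutant 2, a cluster between 3′ UTR clusters of ZNF276 lay opposite a coding exon of FANCA, a Fanconi anaemia DNA-repair gene, at chr16:89805494-89805562 on the plus strand, with a log2 fold of 3.28 against −1.74 in the endogenous FANCA cluster. The other, between MFSD12 clusters at chr19:3545282-3545341 on the minus strand, had 3.81 opposite LINC01480. In wild type 2, chr21:34942745-34942906 on the minus strand lay between DONSON clusters and had 3.90, opposite SON, a gene for a nuclear speckle protein. There the opposite cluster was enriched in wild type 2 itself at 3.12 and reached 5.79 in endogenous. Other wild type 2 clusters lay opposite TYW5 at 4.14, FAM175A at 3.20 and RANBP9 at 4.03.

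Although none overlapped an endogenous cluster, endogenous-free clusters more often lay within 100 or 1000 bases of one than the unenriched clusters that also overlapped none. Within 100 bases lay 40.6% and 21.1% of mutant clusters and 26.8% and 25.8% of wild type clusters, against 15.4% and 14.7% of unenriched clusters in mutant and 18.1% and 16.2% in wild type. The difference averaged 12.5 percentage points ± 8.60 (SD, n = 4), positive in 4 of 4 libraries (exact sign-flip permutation p = 0.13). Within 1000 bases the shares were 87.5% and 80.1% in mutant and 77.7% and 71.6% in wild type, against 70.2%, 67.7%, 71.8% and 68.6%. That difference averaged 9.65 ± 6.44, also positive in 4 of 4 (exact sign-flip permutation p = 0.13). More than 10000 bases away lay 3.13% and 0.849% of mutant clusters and 1.68% and 5.16% of wild type clusters. The unenriched clusters stood at 1.45%, 1.91%, 1.84% and 2.32% there, so a remote part was larger in mutant 1 and wild type 2. The clusters were also wider than those unenriched ones. Median widths were 90 and 92 bases in mutant and 85 and 94.5 bases in wild type, against 54, 60, 52 and 54 bases, a mean difference of 35.4 bases ± 3.82, positive in 4 of 4 libraries (exact p = 0.13). The part of width in the distances was not tested.

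The neighbouring endogenous cluster was stronger in wild type than in mutant, with 2 libraries each, though not on every measure. The nearest endogenous cluster had a median log2 fold of 0.20 for mutant 1 and −0.16 for mutant 2, against 1.15 for wild type 1 and 0.90 for wild type 2. For unenriched clusters without endogenous overlap it was 0.26 in each library. The mean was 0.02 ± 0.26 in mutant and 1.03 ± 0.17 in wild type, without overlap (exact permutation p = 0.33, the smallest possible with n = 2 each). An enriched endogenous cluster lay within 1000 bases of 3 (9.38%) and 7 (1.19%) of the mutant clusters, and of 42 (23.5%) and 65 (15.3%) of the wild type clusters. The unenriched clusters stood at 4.46%, 3.83%, 4.58% and 4.34%. Mutant 2 was the only library below its unenriched clusters. The mean was 5.28% ± 5.79 in mutant and 19.4% ± 5.80 in wild type (exact permutation p = 0.33, n = 2 each). Within 100 bases the proteins overlapped, at 6.25% and 0% in mutant and 7.26% and 4.23% in wild type (exact permutation p = 0.67, n = 2 each).

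**Figure D5:**
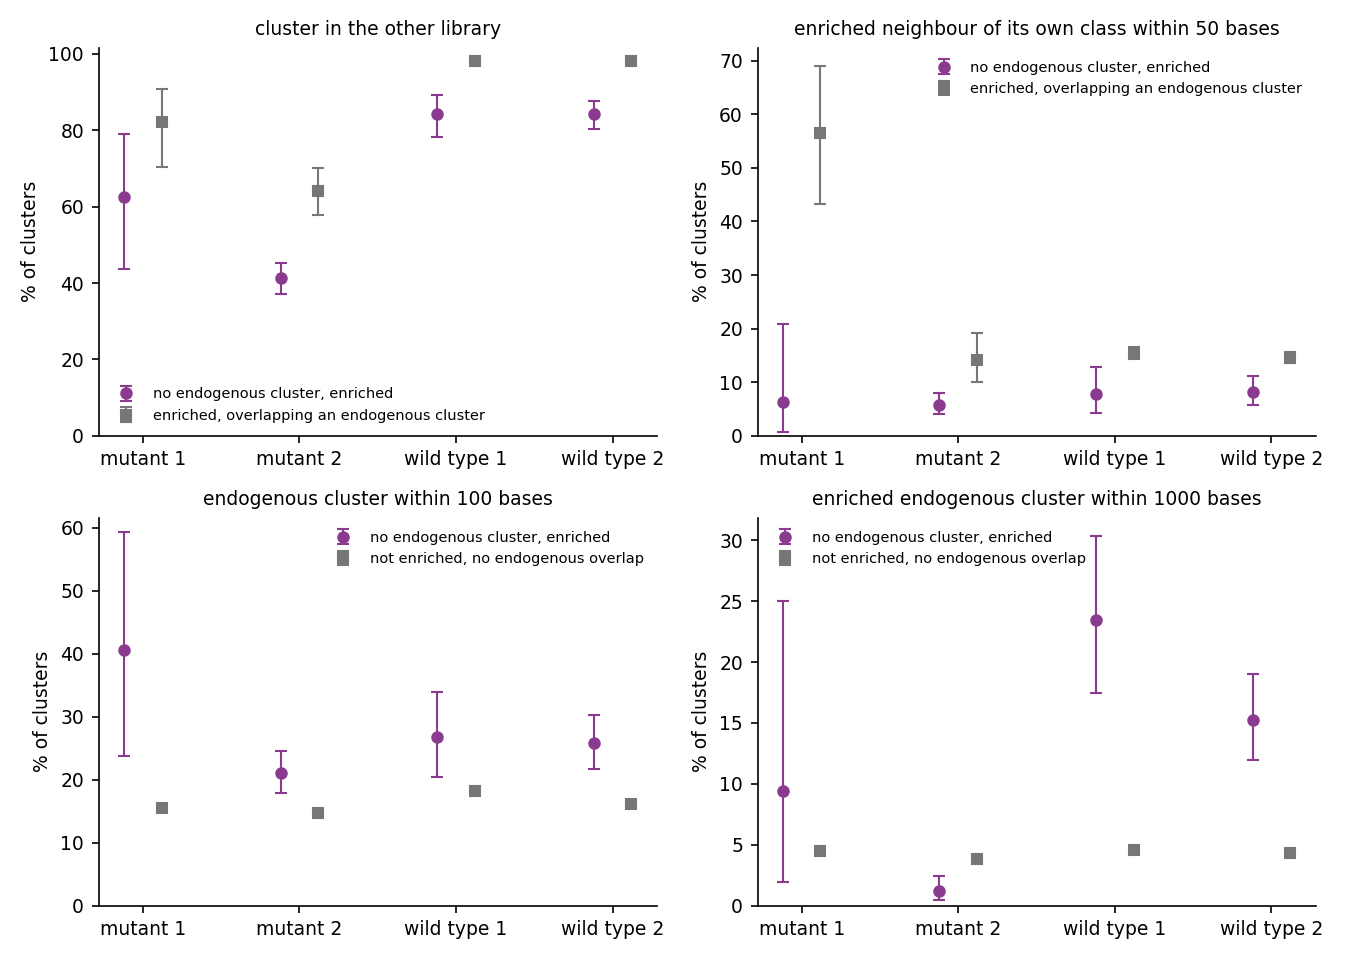
Percentage of clusters in each tagged library that meet 4 conditions, with exact 95% intervals, for enriched clusters without endogenous overlap (purple circles) and for the comparison clusters (grey squares). In the lower right panel both wild type libraries lie above 15% and mutant 2 lies at 1.19%, below its unenriched clusters at 3.83%.

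The host genes differed in the same direction. Of the clusters that could be given a gene by their flanks, 52.6% of 19 in mutant 1 and 40.7% of 445 in mutant 2 lay in a gene that also held a reproducible endogenous peak, against 75.5% of 139 in wild type 1 and 68.8% of 314 in wild type 2. Unenriched clusters without endogenous overlap stood at 66.8% and 63.5% in mutant and 66.1% and 66.5% in wild type. Both mutant libraries lay below these levels and both wild type libraries above them, by uneven margins. Wild type 2 stood at 68.8% against 66.5%, and the share of mutant 1 rests on 10 of 19 clusters. The difference from the unenriched averaged −6.30 percentage points ± 14.8 (SD, n = 4 libraries), positive in 2 of 4 (exact sign-flip permutation p = 0.5). The mean was 46.7% ± 8.46 in mutant and 72.2% ± 4.77 in wild type (exact permutation p = 0.33, n = 2 each).

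By region, the nearest endogenous cluster was more often exonic for endogenous-free clusters than for unenriched ones. It lay in an exon for 43.8% and 23.8% of mutant clusters and 21.2% and 19.5% of wild type clusters, against 14.4% and 15.1% of the unenriched in mutant and 13.8% and 12.8% in wild type. The difference averaged 13.0 percentage points ± 10.9 (SD, n = 4), positive in 4 of 4 libraries (exact sign-flip permutation p = 0.13). An intron was nevertheless the most frequent setting, at 50% and 71.8% in mutant and 76.5% and 77.5% in wild type. The endogenous files give hardly any intergenic clusters, 38 and 22, and what this did to the choice of tagged clusters was not tested.

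The chromosomes differed between mutant 2 and the wild type libraries. Chromosome 19 held 61 endogenous-free clusters of mutant 2, or 10.4%, where it held 3.94% of all clusters of that library. Chromosome 16 held 44 (7.47%, against 3.92% of all clusters) and chromosome 22 held 40 (6.79%, against 3.04%). In wild type the share on chromosome 19 was 0.559% and 1.17%, where all clusters stood at 2.56% and 2.31%. The other enriched clusters of mutant 2 also exceeded those levels, with 7.92% on chromosome 19, 5.83% on chromosome 16 and 6.25% on chromosome 22. Mutant 1 had 2 of its 32 on chromosome 19 (6.25%, against 3.22% of all its clusters) and 6 on chromosome X (18.8%, against 2.90%), of which 5 were those of the stretch described above.

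The mitochondrial chromosome held 1 endogenous-free cluster of mutant 1, none of mutant 2 and 3 of each wild type library. In mutant 1, wild type 1 and wild type 2 these made up 3.13%, 1.68% and 0.704% of endogenous-free clusters. Of all clusters the chromosome held 0.0173%, 0.0485% and 0.0417%, and of the other enriched clusters 9.68%, 0.775% and 0.759%. All 7 endogenous-free clusters carried the capped −log10 p of 400. They formed 1 mutant and 4 wild type loci of 1 to 33 bases, in gaps between endogenous clusters. In MT-ND2, a subunit gene of respiratory complex I, chrM:5057-5089 had a log2 fold of 3.76 in wild type 1. The 5-base mutant locus, chrM:10055-10059 between MT-TG and MT-ND3, had 3.14 in mutant 1 and 1.42 in mutant 2, with none listed in wild type 1 and 2.12 in wild type 2.

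The gene lists were counted over the loci with a name. Known QKI targets had 0 mutant loci and 2 wild type loci, both in MICAL3. These 2 held 3 of the 314 named clusters of wild type 2 (0.955%), where 0.107% of its named unenriched clusters without endogenous overlap lay in the list. All 3 lay close together, at chr22:18359969-18359973 and chr22:18360074-18360118, in loci of 5 and 45 bases. Wild type 1 had 0 of 139 named clusters in the list. Nuclear long noncoding RNAs had 1 mutant locus and 0 wild type loci: the mutant one lay in KCNQ1OT1, an antisense transcript of the imprinted KCNQ1 domain, with 0.83 in mutant 1 and 3.35 in mutant 2. It was 1 of 445 named clusters of mutant 2 (0.225%), where the unenriched stood at 0.0497%. Small nuclear RNA genes, tRNA genes and ribosomal RNA had 0 loci in either group. Among the named unenriched clusters, small nuclear and ribosomal RNA also had 0 in all 4 libraries and tRNA genes had 3 to 7. A locus is named only between endogenous clusters of the same gene, which leaves little room at short genes. The counts of 0 therefore show no absence at these RNAs.

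The authors' lists of reproducible peaks were made from the same pairs of libraries and add no independent test. Of the 55 reproducible mutant peaks, 17 (30.9%, 19.1% to 44.8%) overlapped no endogenous cluster, with a median log2 fold of 4.02 in the authors' values. Of the 3671 reproducible wild type peaks, 107 (2.92%, 2.40% to 3.51%) overlapped none, with a median of 3.75. Reproducible peaks of the group overlapped 31.3% and 2.72% of endogenous-free clusters in mutant and 48.6% and 23.2% in wild type, against 50% and 13.8% of the other enriched clusters in mutant and 69.1% and 65.2% in wild type. In each library the endogenous-free clusters had the lower share.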

How the data were processed

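Cluster files of 6 immunoprecipitation libraries were analysed. Their 6 inputs were not analysed on their own. The submitters' processing notes name STAR, SAMtools, cutadapt and UMI-tools, without versions, and genome build hg19. The peak caller was not given in the sources used here. Input normalization was done by the authors, per the file headers, one library at a time. The deposited values used were the log2 fold over size-matched input and the −log10 p of that fold, which reaches a cap of 400. Among deposited endogenous clusters, 155229 and 33333 had a log2 fold no higher than 0, and these too removed a tagged cluster.

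Libraries were grouped by title, 2 per group. Clusters overlapped when they shared 1 base on 1 strand. Shares per library were compared by exact two-sided sign-flip permutation over 4 libraries, and proteins by exact two-sided permutation over 2 against 2. Clusters are not replicates, and no test treats them so. Shares have exact Clopper-Pearson intervals at 95%. Analyses used Python 3.11.15 with numpy 2.4.6, pandas 2.3.3 and scipy 1.17.1. The interval functions were tested on simulated data, where 10 of 10 cases on 400 intervals came out as made.

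Loci were named by a rule: up to 10 per group with a cluster in both libraries, by mean log2 fold, all with clusters in all 4 libraries, the highest cluster and the 2 longest runs of each library, and genes of the lists. DIP2C, CANT1, ID4, the opposite-strand cases, the other loci of both groups and the genes with most loci were named after their values had been seen. Clusters, lists and rules were chosen with earlier results of these data known. The deviations of same-numbered mutant and wild type libraries from their group means had r = −0.0386 across 5356 regions, which are not independent. With 2 libraries per group, this value cannot show whether same-numbered libraries were handled together. The main tests did not pair them. The planned motif count and all sequences were left out, since no genome of build hg19 was used here. Some named items are not reported here.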

Additional observations from a re-analysis of the deposited data

How the results depend on the processing

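The counts of endogenous-free clusters follow the thresholds. With a log2 fold minimum of 2 in place of 3, the mean per mutant library was 923.5; with 4 it was 43, and with a −log10 p minimum of 5 it was 71. Mean per wild type library was 505, 81 and 102.5 under the same settings, and 621 without endogenous replicate 1. Leaving out 1 library gave 32 to 589 for mutant and 179 to 426 for wild type. Partner sharing stayed lower than among the other enriched clusters under all 14 alternatives run (−23.7 to −10.1 percentage points), and lower in mutant than in wild type under all 15 (−43.1 to −8.35), where 2 against 2 allow no exact permutation p below 0.33. The difference in neighbouring runs, mutant minus wild type, turned to 1.68 with the log2 fold minimum of 2, to 3.01 when only endogenous clusters above 0 removed a cluster, to 0.778 with no endogenous cluster within 50 bases, and to 2.72 at a gap of 1000 bases. Opposite-strand overlap, mutant minus wild type, was −1.24 to 0.170 when 1 library was left out, and above 0 without wild type 2, which held all 6 wild type cases. Closeness to endogenous clusters turned to −0.825 at 10000 bases, where nearly all clusters qualify. With the replicate block, mutant minus wild type was −32.4 for partner sharing (exact p = 0.5), −2.01 for neighbouring runs and −0.534 for opposite-strand overlap, with no change of direction. The motif count was not run. Read depth is unknown, and its part in these results was not tested.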
